A study of Mus musculus with 6 samples.

Results

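The genes described here are 41 stress response genes measured in mouse quadriceps after deletion of *Dnm1l*, the gene of the mitochondrial fission protein Drp1. They were taken by gene symbol from the 27179 genes listed in the deposited counts. They form 3 arms. The first is the integrated stress response with the transcription factor ATF4 and its targets (27 genes), the second is a set of mitochondrial chaperones and proteases (5 genes), and the third is the unfolded protein response of the endoplasmic reticulum, ER (9 genes). All 41 were found once each, and 39 of them passed the filter on low counts and were tested among 16483 genes. *Fgf21* and *Gdf15* did not pass.

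RNA-seq was performed on quadriceps of male mice on normal chow, 3 weeks post–*Dnm1l* deletion. The 3 miDrp1KO mice carried floxed *Dnm1l* (*Drp1*) alleles and HSA-MerCreMer, a tamoxifen-inducible Cre recombinase under the human skeletal actin (*ACTA1*) promoter, which is active in muscle fibers. The 3 control mice carried the floxed alleles without Cre, and both groups received tamoxifen at 3 months of age. The promoter is not active in the other cells of the muscle, whose transcripts are part of the same libraries. Each library is 1 mouse, numbered here 1 to 3 in each group.

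Cells under stress phosphorylate the initiation factor eIF2, which lowers protein synthesis in general but raises translation of *Atf4*. ATF4 then switches on genes for amino acid synthesis and import, for feedback regulators, and, in stressed muscle, for the secreted factors FGF21 and GDF15. Misfolded protein in the mitochondrial matrix is handled by chaperones such as HSPD1 with HSPE1 and HSPA9 and by the proteases LONP1 and CLPP, while misfolded protein in the ER is sensed by ATF6, IRE1 and PERK, which raise ER chaperones such as HSPA5. PERK is also 1 of the eIF2 kinases, so the ER and ATF4 arms share an input.

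Some promoters of these genes hold short sequence elements known from the ATF4, ER and heat shock responses. Those shown are of *Trib3*, *Vldlr*, *Hspd1* and *Hspe1*, on which values below turn, of *Hspa5*, the usual readout of ER stress, and of *Herpud1*, which holds elements of both the ATF4 and ER kind. RefSeq windows on GRCm38.p6 from 250 bases before to 50 bases after the start were available for 36 of the 41 genes, with none for *Cth*, *Atf6*, *Hspa9*, *Slc7a5* and *Aldh1l2*. A gene with several starts can have its window at a start inside its span. The composite element bound by C/EBP and ATF4 proteins was searched for on both strands as TGATG, any base, then AA. It was in 8 of 24 windows of the ATF4 arm (33.3%; *Nupr1*, *Trib3*, *Chac1*, *Asns*, *Pycr1*, *Slc7a11*, *Fgf21* and *Vldlr*), in 1 of 8 windows of the ER arm, in 0 of 4 of the mitochondrial arm and in 4.51% of the windows of 27025 genes. The ER stress element (CCAAT, any 9 bases, CCACG, both strands) was in *Hspa5*, *Hsp90b1* and *Creld2*, against 0.137% of all windows. A shorter ER stress element (ATTGG, any base, CCACG, both strands) was in *Herpud1* and in 0.0444% of all windows. The heat shock element was searched for as TTC, GAA and TTC, each 2 bases apart, on both strands. It was in *Hspd1* and *Hspe1* and in 0.662% of all windows. A match is a description of the letters and does not show that a factor binds there. In the sequences below, the capitals mark the matches. *Herpud1* (chr8:94386179-94386428, + strand) is given as the 250 bases before its start, and the others as 30 bases around the match. *Vldlr* (chr19:27216809-27216838, + strand) has its match before the later of 2 starts (27216484 and 27217020), inside the span of the gene. *Trib3* (chr2:152344028-152344057, - strand) has its match 15 to 22 bases after its start. *Hspa5* (chr2:34772020-34772049, + strand) has its match before its start. The match of *Hspd1* and *Hspe1* (chr1:55088053-55088082) lies between the *Hspd1* start at 55087932 and the *Hspe1* start at 55088148, which point away from each other. The other *Hspd1* start, at 55088243, places the match inside the span of that gene. The stretch is read on the + strand in the direction of *Hspe1*, and its capitals hold 2 overlapping matches.
Vldlr: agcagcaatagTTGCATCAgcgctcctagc
Trib3: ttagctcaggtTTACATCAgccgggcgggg
Herpud1: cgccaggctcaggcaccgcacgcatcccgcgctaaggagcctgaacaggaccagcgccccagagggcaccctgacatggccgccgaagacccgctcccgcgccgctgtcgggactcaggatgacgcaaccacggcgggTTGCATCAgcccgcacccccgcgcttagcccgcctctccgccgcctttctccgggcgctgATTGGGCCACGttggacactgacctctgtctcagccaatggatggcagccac
Hspa5: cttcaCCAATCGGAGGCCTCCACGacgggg
Hspd1 and Hspe1: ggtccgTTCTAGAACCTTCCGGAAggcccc
*Herpud1* holds both an ATF4 type element and an ER type element, and *Hspd1* and *Hspe1* share 1 stretch of bases with the heat shock element.

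Library totals ran from 13989588 to 62042255 counts, and ribosomal RNA genes took 1.47 to 24.4% of them. Levels are given in CPM, a gene's counts relative to a library size scaled with the TMM method of edgeR. *Dnm1l* was at 114 to 156 CPM in control and 66.2 to 81.3 CPM in miDrp1KO libraries, without overlap. Its log2 fold change was -0.91 (unadjusted p = 3.89e-04 and adjusted p = 0.362 in edgeR, adjusted p = 0.00228 in DESeq2). The edgeR test thus did not call the deleted gene itself at an adjusted p under 0.05. The tissue label was checked with 7 muscle fiber markers, none of them at 0. Their summed level was 129396 to 138268 CPM in control and 59772 to 100579 CPM in miDrp1KO libraries. *Myh4*, with the highest control level of the 7, was at 49885 to 62914 CPM in control and 12241 to 40363 CPM in miDrp1KO libraries. It was the only 1 of the 7 lower at an unadjusted p under 0.05 in edgeR, against 6.22% of all tested genes. *Acta1* and *Tnnt3* were also lower without overlap. *Ckm*, *Myh1*, *Myh2* and *Mb* overlapped, *Mb* with a log2 fold change of 0.67. The summed level of 5 adipocyte markers was 179 to 380 CPM in control and 67.1 to 172 CPM in miDrp1KO libraries, and 3 of the 5 were lower at an unadjusted p under 0.05, against 6.22% of all tested genes. That of 6 macrophage markers was 82.8 to 163 CPM in control and 155 to 159 CPM in miDrp1KO libraries, and 3 of the 6 were higher at an unadjusted p under 0.05, against 4.68% of all tested genes. The summed list of satellite cell and regenerating fiber genes ran from 2227 to 2564 CPM in control and from 498 to 1863 CPM in miDrp1KO libraries. Most of this sum was the developmental myosin *Myh8* (1948 to 2239 CPM in control), 1 of the 4 genes and the only one lower at an unadjusted p under 0.05, while the satellite cell marker *Pax7* and the myogenic factor *Myog* had log2 fold changes of 0.68 and 0.20 with overlapping groups. Libraries stood apart by slow fiber markers, whose sum was 353, 17.3 and 45.7 CPM in control replicates 1 to 3 and 48.9, 594 and 554 CPM in miDrp1KO replicates 1 to 3. Control replicate 1 and miDrp1KO replicates 2 and 3 were thus high, and across all tested genes control replicate 2 correlated best with miDrp1KO replicate 1 (Spearman correlation 0.982). Lists for blood, fibroblasts, endothelium and Schwann cells overlapped between the groups. The part of these shifts in the values below was not tested, and in a bulk sample fewer cells of a type and less RNA per cell cannot be told apart.

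To examine whether the 3 arms moved after loss of Drp1, the 3 miDrp1KO libraries were compared with the 3 control libraries. The matrix protease *Lonp1* and the matrix chaperone *Hspd1* were lower in every miDrp1KO library than in any control library. The ATF4 feedback gene *Trib3* was higher in every miDrp1KO library, most of all in 1 of them. *Atf4* itself, *Ddit3* and the ER chaperone *Hspa5* had overlapping groups. None of the 39 genes reached an adjusted p under 0.05 in the quasi-likelihood test of edgeR, Benjamini-Hochberg adjusted over all 16483 genes, where 2 genes (0.0121%) did, and the adjusted p of the 39 ran from 0.362 to 0.998. At an unadjusted p under 0.05 edgeR gave 5 of the 39 (12.8%), against 10.9% of all tested genes. Of these 5, *Trib3*, *Mthfd2* and *Sdf2l1* were higher in miDrp1KO muscle, in which direction 4.68% of all tested genes passed, and *Hspd1* and *Lonp1* were lower, in which direction 6.22% passed. The share of the 39 is near that of all genes. The groups did not overlap in 5 of the 39 (12.8%), against 18% of all tested genes. *Trib3* and *Cebpg* lay above the control libraries, as did 7.67% of all genes, and *Vldlr*, *Hspd1* and *Lonp1* lay below, as did 10.3%. By sign, 21 of the 39 fold changes were positive and 18 negative, with a median log2 fold change of 0.03 beside 0.02 over all tested genes. DESeq2, the tool of the study, gave an adjusted p to 13 of the 39, those with the higher counts, and called *Lonp1* alone among them. It called 121 of the 2860 genes (4.23%) to which it gave an adjusted p.

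**Figure D1:**
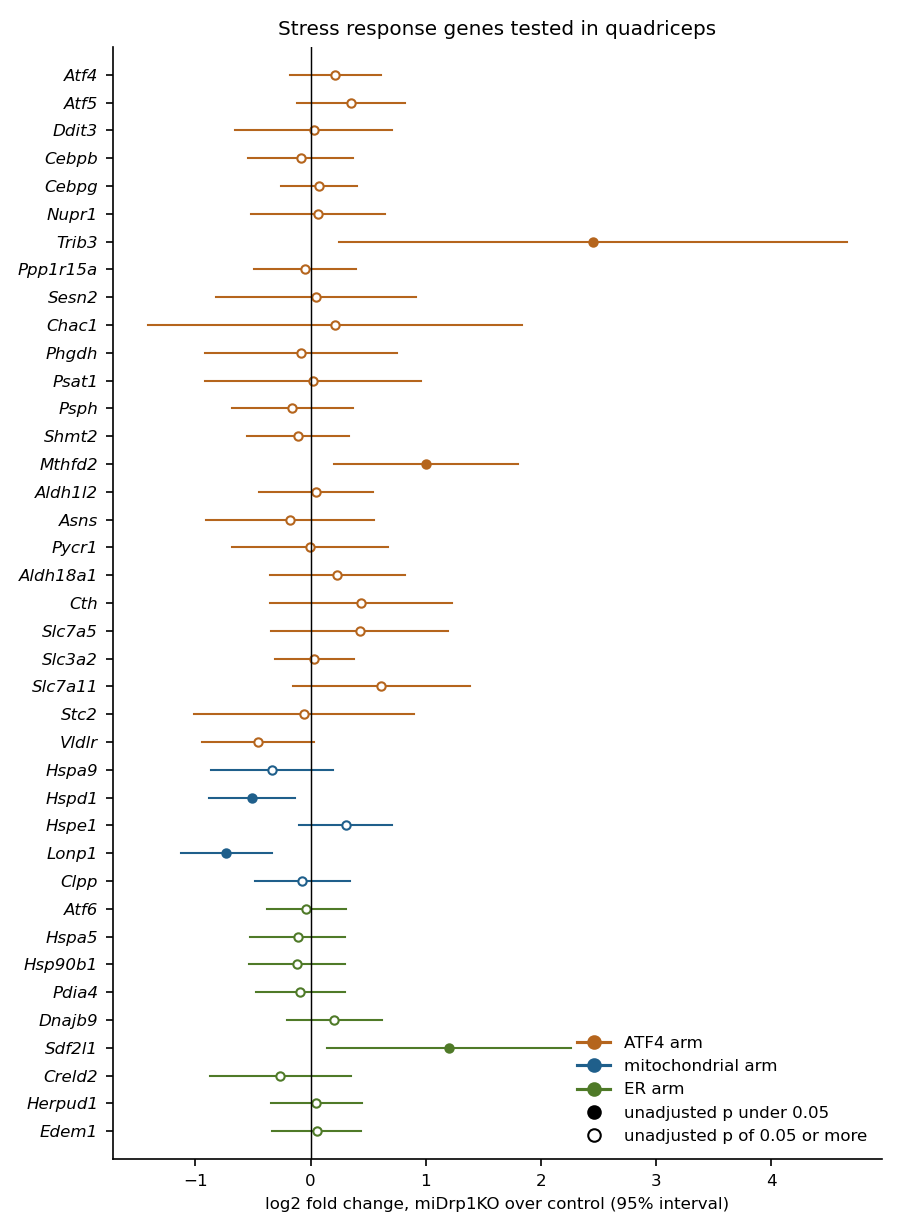
Log2 fold change of miDrp1KO over control quadriceps for the 39 tested genes, with the 95% interval from edgeR as a line. Colors give the arm, and filled points have an unadjusted p under 0.05. Most points sit within 0.5 of 0 on the log2 scale, with *Trib3* at 2.45 the farthest to the right and *Lonp1* at -0.73 the farthest to the left.

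In the ATF4 arm, 2 of the 25 tested genes passed an unadjusted p under 0.05, both higher in miDrp1KO muscle. This is 8% of the 25, against 10.9% of all tested genes. By sign, 16 had positive and 9 negative fold changes. The median log2 fold change was 0.05. Among the 6 transcription factors of the arm the fold changes ran from -0.09 to 0.35 on the log2 scale and none had an unadjusted p under 0.05. *Atf4* (Entrez 11911, chromosome 15 of GRCm38, 80255184 to 80257545), which encodes the factor that drives the response, was at 58.8, 77.3 and 61.6 CPM in control replicates 1 to 3 and at 74.1, 67.1 and 88.2 CPM in miDrp1KO replicates 1 to 3. The groups overlapped, with means of 65.9 ± 9.97 CPM and 76.5 ± 10.7 CPM (SD, n = 3 each, two-sided exact permutation test p = 0.3, where 0.1 is the smallest that 3 mice against 3 allow). Its log2 fold change was 0.21 (95% interval -0.18 to 0.61, edgeR adjusted p = 0.691), so the interval ends below a log2 fold change of 1. ATF4 is mostly set by translation, which a count of transcripts does not measure.

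*Ddit3* (Entrez 13198), which encodes the proapoptotic factor CHOP, was at 11.7, 7.14 and 8.06 CPM in control and at 5.30, 10.03 and 12.1 CPM in miDrp1KO replicates 1 to 3. The highest and the lowest of the 6 libraries were both miDrp1KO libraries, and the log2 fold change was 0.03 (standard error, SE, 0.30, edgeR adjusted p = 0.985). Its sign turned with the length and GC correction (-0.15). *Cebpg*, a C/EBP partner of ATF4, was at 67.0, 64.6 and 69.0 CPM in control and at 70.0, 71.8 and 69.2 CPM in miDrp1KO libraries. Its groups were apart by less than 1 CPM, and the log2 fold change was 0.07 (SE 0.15, edgeR adjusted p = 0.888). *Atf5*, a relative of ATF4 that in mammals is tied to mitochondrial stress, had a log2 fold change of 0.35 (edgeR adjusted p = 0.575), with control replicate 2 lowest at 9.26 CPM and the other 5 libraries at 15.01 to 18.7 CPM. *Cebpb* and *Nupr1*, a further C/EBP factor and a small stress-induced chromatin protein, had log2 fold changes of -0.09 and 0.06 with overlapping groups.

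Among the 4 feedback regulators, *Trib3* stood out. It encodes a pseudokinase that binds ATF4 and CHOP and dampens their activity (Entrez 228775, chromosome 2, 152337425 to 152344060). It was at 0.663, 1.09 and 0.366 CPM in control replicates 1 to 3, from 14, 15 and 22 counts, and 1.46, 1.27 and 7.97 CPM in miDrp1KO replicates 1 to 3, from 30, 52 and 166 counts. All miDrp1KO libraries lay above all control libraries, by little in replicates 1 and 2 and by far in replicate 3. The log2 fold change was 2.45 (SE 0.91, unadjusted p = 0.0346, edgeR adjusted p = 0.426), and without miDrp1KO replicate 3 it was 1.06 (unadjusted p = 0.0767). The unadjusted p was also above 0.05 without control replicate 1, 2 or 3 (0.119, 0.0600 and 0.118) and with no filter on low counts (0.0661). It was 1.09e-04 with DESeq2, which gave *Trib3* no adjusted p, 0.0176 without miDrp1KO replicate 1 and 0.00945 without miDrp1KO replicate 2. Ribosomal RNA counts were 24.4% in miDrp1KO replicate 3, 23.0% in miDrp1KO replicate 1 and 15.6% in control replicate 1. *Trib3* was at 7.97, 1.46 and 0.663 CPM in these libraries. With the share of ribosomal RNA as a covariate the log2 fold change of *Trib3* was 1.599 (unadjusted p = 0.0672). The cause of the high level in miDrp1KO replicate 3 was not tested. *Ppp1r15a*, which encodes GADD34, the phosphatase subunit that reverses eIF2 phosphorylation, was at 18.4, 13.8 and 21.5 CPM in control and at 16.1, 15.2 and 20.9 CPM in miDrp1KO libraries. The groups overlapped throughout, and the log2 fold change was -0.05 (SE 0.20, edgeR adjusted p = 0.954). *Chac1*, a glutathione-degrading enzyme, spread widely within both groups, from 27.4 to 116 CPM in control and from 44.4 to 120 CPM in miDrp1KO libraries. *Sesn2*, a leucine-sensing inhibitor of mTORC1, was at 0.758 to 2.08 CPM and had a log2 fold change of 0.05.

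Of the 6 enzymes for serine, glycine and one-carbon metabolism, *Mthfd2*, the mitochondrial methylenetetrahydrofolate dehydrogenase (Entrez 17768, chromosome 6, 83305704 to 83326011), was the only one at an unadjusted p under 0.05. It was at 2.32, 1.75 and 2.37 CPM in control and at 5.98, 2.16 and 5.09 CPM in miDrp1KO replicates 1 to 3. Replicates 1 and 3 were above every control library and replicate 2 was within the control range. The log2 fold change was 1.002 (SE 0.36, unadjusted p = 0.0181, edgeR adjusted p = 0.392), and the unadjusted p was above 0.05 without control replicate 2 (0.0527), miDrp1KO replicate 1 (0.0813) or miDrp1KO replicate 3 (0.0649). The high libraries were those with 23.0 and 24.4% ribosomal RNA counts, replicate 2 had 1.47%, and with this share as a covariate the log2 fold change was 0.51 (unadjusted p = 0.148). The other 5 enzymes of the group, *Phgdh*, *Psat1* and *Psph* of serine synthesis and *Shmt2* and *Aldh1l2* of mitochondrial folate metabolism, had log2 fold changes from -0.16 to 0.05 with overlapping groups. The ratio of *Mthfd2* to *Shmt2* counts, a ratio chosen after the values were seen, was 0.175, 0.174 and 0.222 in control and 0.618, 0.244 and 0.390 in miDrp1KO libraries. It was higher in all miDrp1KO libraries (p = 0.1 in a two-sided exact permutation test, the smallest possible; 3 such ratios were computed).

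The 4 enzymes for asparagine, proline and cysteine, *Asns*, *Pycr1*, *Aldh18a1* and *Cth*, had log2 fold changes from -0.18 to 0.44, with overlapping groups and adjusted p from 0.684 to 0.998 in edgeR. The 3 amino acid transporters all had positive fold changes, although none passed the test. *Slc7a11*, the cystine and glutamate exchanger, was at 1.61, 1.09 and 1.20 CPM in control and at 1.36, 1.99 and 2.64 CPM in miDrp1KO libraries. Replicates 2 and 3 were above the control libraries and replicate 1 was among them, with a log2 fold change of 0.61 (SE 0.35, edgeR adjusted p = 0.554). *Slc7a5*, the large neutral amino acid transporter, and *Slc3a2*, the heavy chain it pairs with, had log2 fold changes of 0.42 and 0.03, the latter turning to -0.03 with the share of ribosomal RNA counts as covariate.

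Both hormone genes of the arm were near the limit of detection. *Fgf21* (Entrez 56636) had 5, 0 and 1 counts in control and 5, 17 and 4 counts in miDrp1KO replicates 1 to 3. The highest level was 0.417 CPM in miDrp1KO replicate 2 (95% exact Poisson interval 0.243 to 0.667 CPM), while miDrp1KO replicate 1 was level with control replicate 1, at 0.243 and 0.237 CPM. *Gdf15* (Entrez 23886) had 4, 0 and 0 counts in control and 1, 2 and 14 counts in miDrp1KO libraries. Its level was 0.672 CPM (95% exact Poisson interval 0.367 to 1.13 CPM) in miDrp1KO replicate 3, which was also the library with the most *Trib3*, and 0.189 CPM or lower in the other 5. For the control libraries at 0 the same interval ends at 0.269 CPM (replicate 2, both genes) and 0.0614 CPM (replicate 3, *Gdf15*). These intervals cover counting error only.

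The last members of the ATF4 arm are *Stc2*, a secreted glycoprotein, and *Vldlr*, the very low density lipoprotein receptor. *Stc2* had a log2 fold change of -0.06 with overlapping groups. *Vldlr* (Entrez 22359, chromosome 19, 27216480 to 27254231) had the highest level of the arm per kilobase of transcript, 63.0 CPM per kilobase in control. It was at 455, 592 and 459 CPM in control and at 424, 383 and 289 CPM in miDrp1KO replicates 1 to 3. All miDrp1KO libraries lay below all control libraries, replicate 3 the farthest. The log2 fold change was -0.46 (SE 0.22, unadjusted p = 0.0611, edgeR adjusted p = 0.480). The stretches of *Vldlr* and *Trib3* printed above both hold the composite element, and their fold changes had opposite signs.

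**Figure D2:**
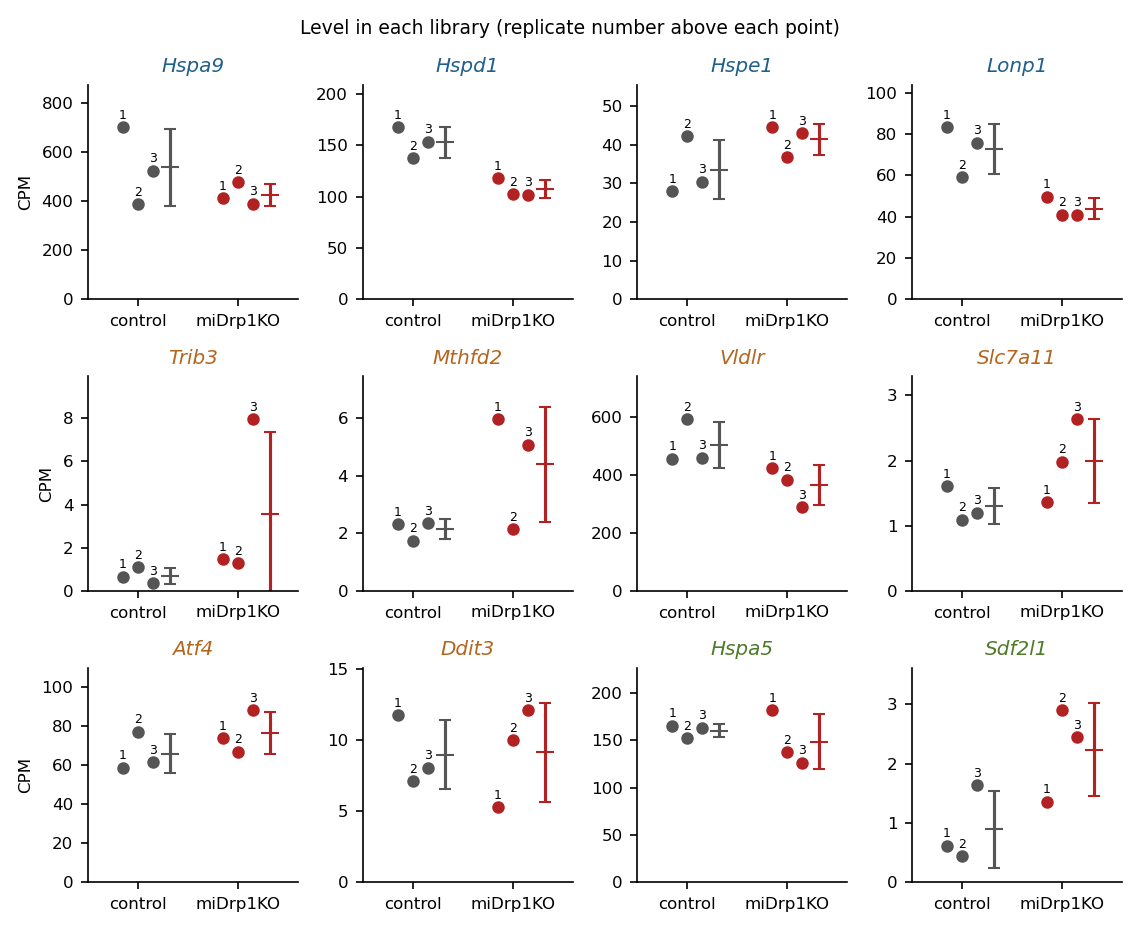
Level in CPM of 12 of the stress response genes in each of the 6 libraries, with the replicate number above each point and the group mean ± SD (n = 3) to the right of the points. Gray is control and red is miDrp1KO, and the axis of each panel starts at 0, so the lower end of the *Trib3* bar for miDrp1KO, which lies under 0, is not drawn. *Lonp1*, *Hspd1* and *Vldlr* have every red point below every gray point, *Trib3* has every red point above, and the other panels overlap.

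In the mitochondrial arm, 2 of the 5 genes were lower at an unadjusted p under 0.05 in edgeR, against 6.22% of all tested genes in that direction, none was higher, and 4 of 5 fold changes were negative, with a median log2 fold change of -0.33. Per kilobase of transcript, the control level ran from *Hspa9* (177 CPM per kilobase) through *Hspd1* (63.0), *Hspe1* (34.8) and *Clpp* (18.0) to *Lonp1* (16.7). *Lonp1* (Entrez 74142, chromosome 17, 56614297 to 56626903), the ATP-dependent protease that degrades damaged matrix proteins, was at 83.1, 59.2 and 75.9 CPM in control and at 49.7, 41.0 and 41.0 CPM in miDrp1KO replicates 1 to 3. The groups were apart, with means of 72.8 ± 12.2 CPM and 43.9 ± 5.02 CPM (SD, n = 3 each, exact permutation p = 0.1). The log2 fold change was -0.73 (95% interval -1.12 to -0.34, unadjusted p = 0.00175, edgeR adjusted p = 0.362), and DESeq2 gave -0.75 (adjusted p = 0.0263). Over all 12 alternatives, 6 of which left out 1 library each, it stayed between -0.88 and -0.61 with an unadjusted p of 0.0113 or lower, and DESeq2 was the only one to call it. *Clpp*, the proteolytic subunit of the other matrix protease, had a log2 fold change of -0.07 with overlapping groups, and the ratio of *Lonp1* to *Clpp* counts overlapped too (exact permutation p = 0.2).

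*Hspd1* (Entrez 15510, chromosome 1, 55077833 to 55088243), which encodes the matrix chaperonin HSP60, was at 167, 137 and 153 CPM in control and at 118, 102 and 102 CPM in miDrp1KO replicates 1 to 3. Every miDrp1KO library was below every control library, and the spread within each group was smaller than the gap between the means of 153 ± 14.96 CPM and 107 ± 8.98 CPM (SD, n = 3 each, exact permutation p = 0.1). The log2 fold change was -0.51 (SE 0.17, unadjusted p = 0.0124, edgeR adjusted p = 0.382, adjusted p = 0.0826 from DESeq2). Without control replicate 1 or 3 the unadjusted p was 0.0640 and 0.0533. *Hspe1* (Entrez 15528, chromosome 1, 55088148 to 55091317) encodes HSP10, the lid of the same chaperonin, and shares the stretch with the heat shock element printed above. It was at 28.03, 42.3 and 30.5 CPM in control and at 44.5, 36.8 and 43.0 CPM in miDrp1KO libraries. Only control replicate 2 reached the miDrp1KO range, and the log2 fold change was positive, at 0.30 (SE 0.18, edgeR adjusted p = 0.574).

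The counts of *Hspe1* relative to those of its partner *Hspd1* were therefore compared, also after the values were seen. The ratio was 0.168, 0.308 and 0.199 in control and 0.378, 0.359 and 0.422 in miDrp1KO libraries. It was higher in every miDrp1KO library, with means of 0.225 ± 0.0736 and 0.386 ± 0.0320 (SD, n = 3 each, exact permutation p = 0.1). *Hspe1* has a transcript of 964 bases, among the shortest 2967 of the 14833 genes with a known length, whose median log2 fold change was 0.08 against -0.03 to 0.01 in 4 sets of longer genes. With a length and GC correction its log2 fold change was 0.16. The starts of the pair overlap in the annotation (*Hspd1* has starts at 55087932 and 55088243 on the - strand, *Hspe1* at 55088148 on the + strand). *Hspa9* (Entrez 15526), the matrix HSP70 that pulls proteins through the import channel, was at 701, 389 and 525 CPM in control and at 414, 477 and 390 CPM in miDrp1KO libraries. The groups overlapped because control replicate 2 was the lowest of all, and the log2 fold change was -0.33 (SE 0.24, edgeR adjusted p = 0.637). The arm's median, which is the value of *Hspa9*, was -0.08 without control replicate 1 and -0.54 without control replicate 2.

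The 15 further mitochondrial chaperones and proteases gave 4 genes lower at an unadjusted p under 0.05 in edgeR (26.7%, against 6.22% of all genes in that direction), none higher, and a median log2 fold change of -0.25. Groups did not overlap in 6 of the 15, all lower (40.0%, against 10.3%). *Spg7*, the paraplegin subunit of the inner membrane m-AAA protease, was at 79.0, 59.7 and 70.7 CPM in control and at 42.6, 29.2 and 24.2 CPM in miDrp1KO libraries. The miDrp1KO libraries reached at most 42.6 CPM and the control libraries at least 59.7 CPM, with a log2 fold change of -1.13 (SE 0.22, unadjusted p = 2.99e-04, edgeR adjusted p = 0.362, adjusted p = 0.00155 from DESeq2). *Afg3l2*, its partner subunit, had a log2 fold change of -0.56 (unadjusted p = 0.0110). *Pmpca*, the alpha subunit of the mitochondrial processing peptidase, had -0.57 (unadjusted p = 0.00530) and *Trap1*, the mitochondrial HSP90, had -0.52 (unadjusted p = 0.0103). All 3 had adjusted p above 0.05 in both edgeR and DESeq2. The summed level of muscle fiber markers, of which *Myh4* had the highest control level, was lower in the same miDrp1KO libraries (59772 to 100579 CPM). The part of this sum in these values was not tested.

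**Figure D3:**
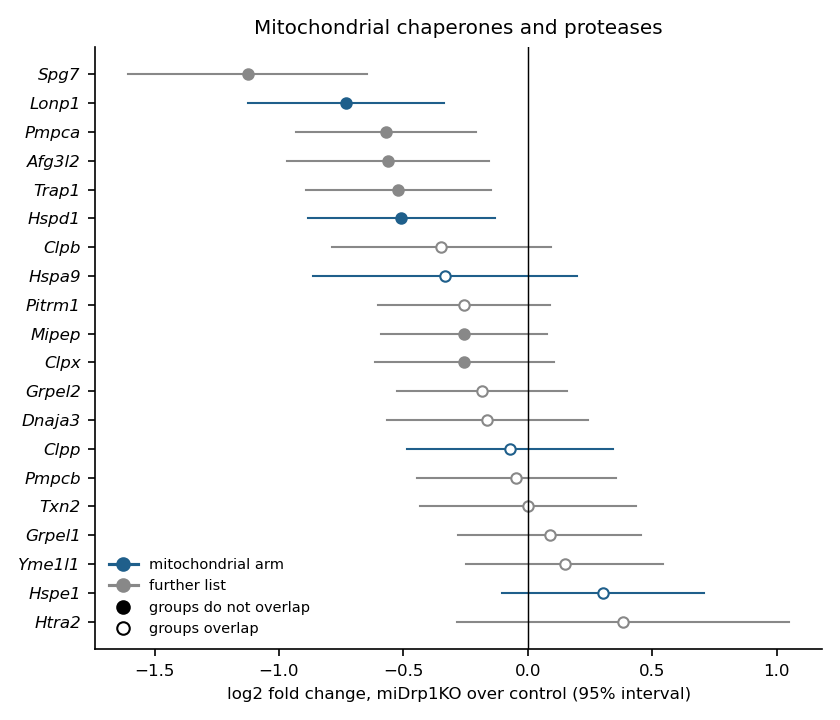
Log2 fold change of miDrp1KO over control for the 5 genes of the mitochondrial arm (blue) and the 15 further mitochondrial chaperones and proteases (gray), with the 95% interval from edgeR. Filled points mark genes whose groups do not overlap. The 8 filled points, from *Spg7* at -1.13 to *Clpx* at -0.25, all lie left of 0, and *Hspe1* at 0.30 and *Htra2* at 0.38 lie farthest right.

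In the ER arm, 1 of the 9 genes (11.1%) had an unadjusted p under 0.05, near the 10.9% of all tested genes, and none had groups that did not overlap, against 18% of all tested genes. By sign, 4 fold changes were positive and 5 negative, with a median log2 fold change of -0.04. *Atf6* (Entrez 226641), the ER membrane sensor that is cut to a transcription factor, was at 54.5, 46.4 and 49.5 CPM in control and at 54.0, 46.7 and 46.0 CPM in miDrp1KO libraries. The ranges nearly coincide, and the log2 fold change was -0.04 (95% interval -0.38 to 0.30, edgeR adjusted p = 0.956). *Hspa5* (Entrez 14828, chromosome 2, 34772090 to 34776529), which encodes BiP, the main ER chaperone and a common readout of ER stress, was at 166, 152 and 163 CPM in control and at 181, 137 and 127 CPM in miDrp1KO replicates 1 to 3. Replicate 1 was above and replicates 2 and 3 were below all control libraries, so the miDrp1KO libraries lay on both sides of the control group. The log2 fold change was -0.11 (95% interval -0.53 to 0.30, edgeR adjusted p = 0.861).

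*Sdf2l1*, a component of the ER chaperone complex around HSPA5 (Entrez 64136, chromosome 16, 17130138 to 17132383), was the gene of the ER arm with an unadjusted p under 0.05. It was at 0.616, 0.437 and 1.63 CPM in control and at 1.36, 2.89 and 2.45 CPM in miDrp1KO libraries. Control replicate 3, the deepest library, was above miDrp1KO replicate 1, and the log2 fold change was 1.20 (SE 0.48, unadjusted p = 0.0300, edgeR adjusted p = 0.417). It was 2.08 without control replicate 3 and 0.91 without control replicate 2 (unadjusted p = 0.0715). The unadjusted p was also above 0.05 without control replicate 1 (0.0791), miDrp1KO replicate 2 (0.123) or miDrp1KO replicate 3 (0.0789), and its transcript of 1108 bases is also among the shortest 2967. The other chaperones and folding factors, *Hsp90b1* (GRP94), *Pdia4* (a disulfide isomerase), *Dnajb9* (an HSPA5 cochaperone) and *Creld2* (a further disulfide isomerase), had log2 fold changes from -0.26 to 0.21 with overlapping groups and adjusted p from 0.720 to 0.885 in edgeR. *Herpud1* and *Edem1*, which act in the degradation of ER proteins, both had log2 fold changes of 0.05. *Hspa5*, *Hsp90b1* and *Creld2*, which hold the ER stress element, all had negative fold changes of small size, and *Sdf2l1*, with no match to it in its window, had the largest positive one of the arm.

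**Figure D4:**
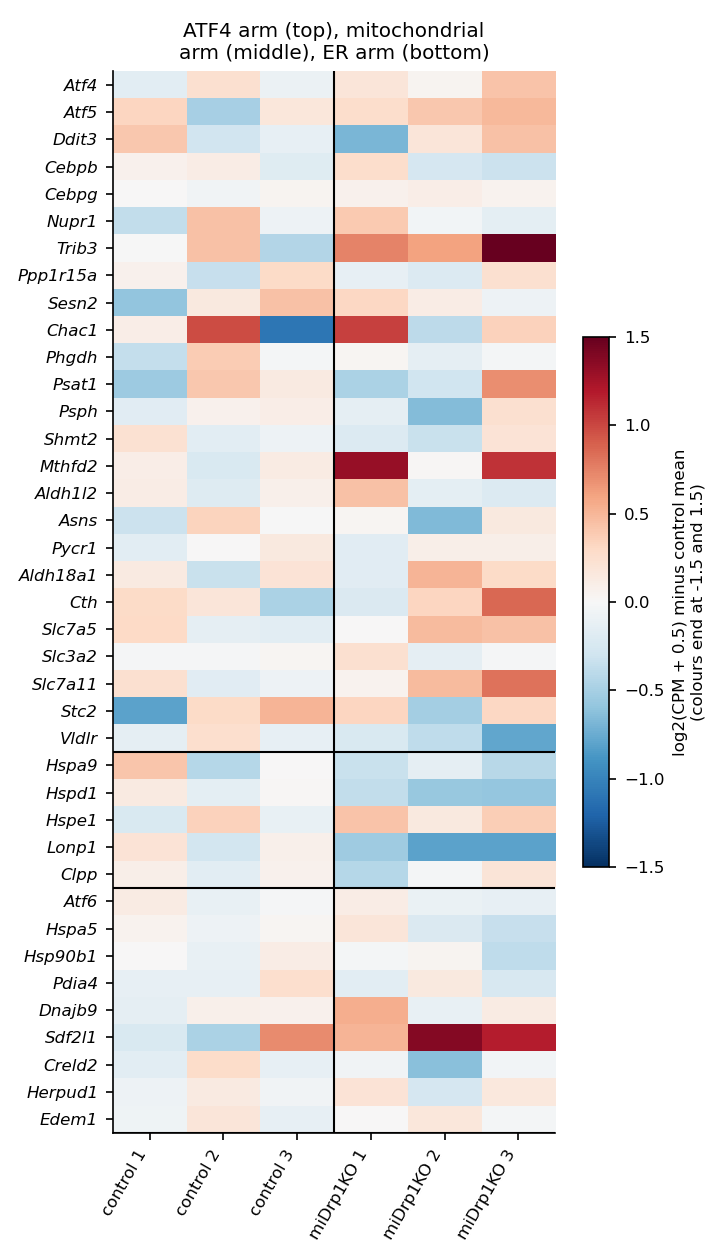
Deviation of each library from the control mean on the scale of log2(CPM + 0.5) for the 39 tested genes (rows), with control libraries left and miDrp1KO libraries right of the vertical line and horizontal lines between the arms. Red is above and blue below the control mean, and colors end at -1.5 and 1.5. Rows that are blue in all 3 miDrp1KO columns are few outside *Lonp1*, *Hspd1*, *Hspa9* and *Vldlr*, and the ATF4 rows are reddest in miDrp1KO replicate 3.

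The libraries of the miDrp1KO group differed among themselves across the arms. The median deviation of the 25 tested ATF4 arm genes from their control mean, on the scale of log2(CPM + 0.5), was 0.06, -0.04 and 0.24 in miDrp1KO replicates 1 to 3, against 0.00, 0.07 and -0.00 in control replicates 1 to 3. Replicate 3 was the farthest up. *Trib3*, *Psat1*, *Cth*, *Slc7a11*, *Atf4*, *Atf5*, *Ddit3* and *Psph* had their highest levels in it, while *Vldlr*, *Cebpb* and *Aldh1l2* had their lowest. For the 5 mitochondrial genes it was -0.37, -0.13 and -0.42 in miDrp1KO replicates 1 to 3, and 0.14, -0.16 and 0.01 in control. miDrp1KO replicate 2 was within the control range here, and replicates 1 and 3, the libraries with 23.0 and 24.4% ribosomal RNA counts against 1.47% in replicate 2, were below it. With this share as covariate the median log2 fold change of the arm was -0.33, as without it. For the 9 ER genes it was 0.11, -0.10 and -0.05 in miDrp1KO and -0.08, -0.08 and 0.03 in control libraries, with no order between the groups.

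The genes around the arms were counted in further lists, in which none of the 75 tested genes had an adjusted p under 0.05 in edgeR, 11 (14.7%, against 10.9% of all tested genes) had an unadjusted p under 0.05 and DESeq2 called only *Spg7*. Upstream of *Atf4*, 2 of the 13 eIF2 kinases and partners (15.4%) were lower at an unadjusted p under 0.05, against 6.22% of all tested genes, and none was higher, and their median was -0.23 on the log2 scale. *Eif2ak1*, the heme-regulated kinase that relays mitochondrial stress to eIF2, was at 41.8, 41.8 and 42.3 CPM in control and at 39.0, 27.97 and 24.3 CPM in miDrp1KO libraries. All miDrp1KO libraries lay below the narrow control range, and the log2 fold change was -0.46 (SE 0.19, unadjusted p = 0.0293, edgeR adjusted p = 0.416). *Eif2b1*, a subunit of the exchange factor that phosphorylated eIF2 inhibits, had a log2 fold change of -0.38 (unadjusted p = 0.0438). Of 13 tested further ATF4 targets, 2 had an unadjusted p under 0.05 (15.4%, against 10.9% of all tested genes). *Mthfd1l*, the mitochondrial formyltetrahydrofolate synthetase, was higher (log2 fold change 0.71, unadjusted p = 0.0439) and *Gpt2*, the mitochondrial alanine transaminase, was lower (-0.56, unadjusted p = 0.0285). *Mthfd1l* was at 1.33 to 1.48 CPM in control and at 1.82 to 3.06 CPM in miDrp1KO libraries, without overlap, and *Gpt2* overlapped.

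In the ER, none of the 8 further sensors and factors had an unadjusted p under 0.05, with a median log2 fold change of 0.03. Of the 26 further folding and degradation genes, 1 was higher and 2 were lower at an unadjusted p under 0.05 (11.5%, near the 10.9% of all tested genes), with a median log2 fold change of -0.11. *Sec61b*, a subunit of the translocation channel, had a log2 fold change of 0.65 (unadjusted p = 0.0395). Its transcript has 723 bases, and with the length and GC correction the log2 fold change was 0.45 (unadjusted p = 0.106). *Calr*, the calcium-binding chaperone calreticulin, and *Sel1l*, the adaptor of a ubiquitin ligase for ER proteins, both had -0.41 (unadjusted p = 0.0449 and 0.0282). All 3 had adjusted p above 0.05 in edgeR, and *Calr* and *Sel1l* had groups that did not overlap.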

How the data were processed

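RNA from quadriceps of 3 control and 3 miDrp1KO mice was sequenced after ribosomal RNA depletion (TruSeq Stranded Total RNA with RiboZero Gold, 2 pools). The authors deposited raw counts per gene, made with Rsubread from reads aligned to GRCm38, and their processing notes name DESeq2 1.30.0. The strand setting, the treatment of multimapping reads and the pool of each library were not given in the sources used here, so overlapping genes are uncertain. Libraries were grouped by genotype label, and the mouse numbers in the labels differ between the groups. No 2 libraries held the same counts.

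Counts were tested here with edgeR 4.0.16 in R 4.3.3 (filterByExpr, TMM, a robust quasi-likelihood fit, and p-values adjusted by Benjamini-Hochberg across 16483 genes, threshold 0.05). The biological coefficient of variation was 0.252. Exact permutation tests on CPM used all splits of the 6 mice. Alternatives were DESeq2 1.42.0, RLE normalization, no filter, ribosomal RNA genes (30) left out, their share as a covariate, each replicate left out, and, added after the data were seen, a correction for length and GC content (values for 90.0% of tested genes). The edgeR steps were also run on simulated counts, drawn with the same biological coefficient of variation for every gene. Such counts do not copy the libraries that stood apart here. Every one of the 41 genes is named. Values in every library are given for those at an unadjusted p under 0.05 or without overlap, for *Atf4*, *Ddit3*, *Ppp1r15a*, *Atf6*, *Fgf21*, *Gdf15*, *Hspa5* and the 3 mitochondrial chaperones. Genes of the further lists are named at an unadjusted p under 0.05. *Slc7a11* and *Mthfd1l* values by library or range were chosen after they were seen. The genes and lists were chosen with earlier results of these data known. Names, positions and promoter windows come from RefSeq (GRCm38.p6). Transcript lengths and GC content are those of the longest GENCODE transcript of each gene.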

Additional observations from a re-analysis of the deposited data

How the results depend on the processing

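No paired analysis was possible because the labels give the control and miDrp1KO mice no shared replicate numbers. Of 468 fold changes (39 genes under 12 alternatives), 51 turned sign, in 22 genes, while 17 genes kept theirs throughout, among them *Lonp1*, *Hspd1*, *Trib3*, *Mthfd2*, *Sdf2l1* and *Vldlr*. The cause was not tested. The number of genes with an adjusted p under 0.05 was 2, and 121 with DESeq2, 8 without the filter, 1 with the share of ribosomal RNA as covariate, 1796 without adjustment and 1 to 7 with 1 library left out (7 without miDrp1KO replicate 1, 1 without miDrp1KO replicate 2 or 3). Of the 39 stress genes 0 passed, and 1 with DESeq2, 5 without adjustment and 0 with any 1 library left out. At an unadjusted p under 0.05 the other settings gave 2 to 6 of them, beside 951 to 3115 of all genes tested. The 951 came without control replicate 3, with 3 of the stress genes, and the 3115 without miDrp1KO replicate 1, with 6. The median of the mitochondrial arm was -0.54 to -0.08 with 1 library left out, and the medians of all 3 arms otherwise moved by less than the spread between replicates.

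Log2 fold changes turned sign with the share of ribosomal RNA as covariate for *Chac1* (-0.22), *Psat1* (-0.12), *Aldh1l2* (-0.044), *Slc3a2* (-0.032), *Pdia4* (0.040), *Herpud1* (-0.078) and *Pycr1* (0.078), with the length and GC correction for *Ddit3* (-0.15) and *Pycr1* (0.029), with DESeq2 for *Psat1* (-0.00064), and for *Pycr1* with RLE normalization (0.0081), no filter (0.0044) and ribosomal RNA genes left out (0.034). With 1 library left out, the ranges that crossed 0 were -0.20 to 0.32 for *Ddit3*, -0.28 to 0.044 for *Cebpb*, -0.10 to 0.30 for *Nupr1*, -0.22 to 0.13 for *Ppp1r15a*, -0.24 to 0.45 for *Sesn2*, -0.18 to 0.80 for *Chac1*, -0.27 to 0.15 for *Phgdh*, -0.51 to 0.28 for *Psat1*, -0.38 to 0.064 for *Psph*, -0.27 to 0.039 for *Shmt2*, -0.18 to 0.19 for *Aldh1l2*, -0.35 to 0.090 for *Asns*, -0.081 to 0.14 for *Pycr1*, -0.058 to 0.11 for *Slc3a2*, -0.39 to 0.33 for *Stc2*, -0.20 to 0.11 for *Clpp*, -0.11 to 0.046 for *Atf6*, -0.26 to 0.010 for *Hspa5*, -0.20 to 0.024 for *Hsp90b1*, -0.22 to 0.072 for *Pdia4*, -0.014 to 0.18 for *Herpud1* and -0.014 to 0.13 for *Edem1*. *Fgf21* and *Gdf15*, which had 17 counts or fewer in every library, did not pass the filter on low counts and have no fold change here.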
